A study of Mus musculus with 6 samples.

Results

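The genes described are Trpc1, Trpc2, Trpc4, Trpc5, Trpc6 and Trpc7, chosen by name as 6 rows of the 52513 in the expression table, with no filter on level. They are not the whole family in mouse, so no total over the family is given. The tissue was the L4 to L5 part of the spinal cord in wild-type mice. There were 3 libraries from mice injected intrathecally with morphine (10 µg in 10 µL) for 7 days and 3 from mice injected intrathecally with saline for 7 days. The sources used here do not give strain, sex or age, nor whether a library pooled several animals, so p-values measure the spread between these libraries. The sample descriptions carry the numbers 1-2-3, 4-5-6 and 7-8 for libraries 1, 2 and 3 of each group, without saying what is numbered. If these are animals, each library is a pool, and library 3 of each group holds 2 animals, against 3 in the others. Values are FPKM (fragments relative to the length of the transcript and to all mapped fragments), and the depth estimated from the table was 17.8 to 19.9 M fragments in morphine and 21.3 to 26.1 M in saline. The FPKM columns summed to 720234 to 741145 in morphine and 662470 to 670280 in saline, so the groups differ in scale.

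Trpc genes encode cation channels of the plasma membrane that let in calcium and open downstream of receptors coupled to phospholipase C. A channel is built of several subunits, which can be alike or mixed. Trpc5 and its nearest relative Trpc4 can form channels alone, with each other or with Trpc1, while Trpc6 and Trpc7 belong to the branch opened directly by diacylglycerol. Trpc2 serves pheromone sensing in the vomeronasal organ of rodents and is a pseudogene in humans. The series title names Trpc5 and the histone methyltransferase Ezh2 in morphine tolerance, so the comparison asks whether the channel subunits differ in level after morphine.

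The starts of Trpc5 and Trpc4 are shown because these are the most closely related subunits and because Polycomb proteins, to which Ezh2 belongs, are known to favour CG-rich starts. The bases are the 250 upstream of the RefSeq start (GRCm38.p6), 5′ to 3′ on the gene's strand, and capitals mark CG dinucleotides. The first lies at chrX:144688181-144688430 on the minus strand and the second at chr3:54155807-54156056 on the plus strand.
Trpc5: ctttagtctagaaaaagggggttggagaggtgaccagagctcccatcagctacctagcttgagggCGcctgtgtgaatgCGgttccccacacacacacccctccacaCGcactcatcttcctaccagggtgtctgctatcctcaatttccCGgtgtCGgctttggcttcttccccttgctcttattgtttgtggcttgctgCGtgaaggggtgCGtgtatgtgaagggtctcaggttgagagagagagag
Trpc4: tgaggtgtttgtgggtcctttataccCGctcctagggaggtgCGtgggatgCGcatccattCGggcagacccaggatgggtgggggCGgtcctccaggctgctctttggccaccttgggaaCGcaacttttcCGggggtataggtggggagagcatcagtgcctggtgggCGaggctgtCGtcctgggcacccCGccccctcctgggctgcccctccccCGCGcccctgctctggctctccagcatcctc
The Trpc5 stretch holds 7 CG dinucleotides and 54.4% G and C, and the Trpc4 stretch holds 12 and 66.4%. All 6 genes matched a RefSeq start, with 17 CG dinucleotides at Trpc1, 12 at Trpc6, 4 at Trpc2 and 2 at Trpc7. Of all 32851 starts in that table, 46.3% have at least as many as Trpc5 and 33.5% at least as many as Trpc4, and the median is 6. The GC box GGGCGG, searched on both strands, was found at Trpc1 and Trpc4 and in 32.7% of all starts. These are features of the sequence, and no binding or methylation was measured.

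Trpc1 was by far the most abundant of the 6 transcripts. It had 7.04, 6.25 and 6.63 FPKM in morphine 1, 2 and 3, against 6.89, 6.65 and 7.56 FPKM in saline 1, 2 and 3. The groups overlapped, with morphine 1 above saline 1 and 2. Trpc1 lies on chromosome 9 (mm10, 95705082 to 95750375, minus strand).

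Trpc7, Trpc4 and Trpc5 formed a middle tier. Trpc7 (chromosome 13, 56773113 to 56895993, minus strand) had 0.69, 0.53 and 1.08 FPKM in morphine, against 0.81, 0.68 and 0.78 FPKM in saline. Morphine 3 was the highest of the 6 libraries and morphine 2 the lowest, so the morphine values enclosed the saline values. Trpc4 (chromosome 3, 54156035 to 54318471, plus strand) had 0.80, 0.62 and 0.58 FPKM in morphine, against 0.64, 0.86 and 0.77 FPKM in saline, and its groups overlapped.

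Trpc5 (chromosome X, 144381671 to 144688180, minus strand) had 0.39, 0.35 and 0.30 FPKM in morphine, against 0.68, 0.67 and 1.05 FPKM in saline. It was the 1 gene of the 6 whose groups did not overlap. Such separation in either direction held for 19.1% of the 28021 genes above 0 in at least 1 library, and in the direction of lower values after morphine in 10.0%. Saline 3 stood apart from the other saline libraries on the high side.

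Trpc6 and Trpc2 had the lowest mean listed values, and that of Trpc2 depends on a split with the overlapping gene Xntrpc, described below. Trpc6 (chromosome 9, 8544142 to 8680741, plus strand) had 0.20, 0.27 and 0.18 FPKM in morphine, against 0.14, 0.26 and 0.31 FPKM in saline. Its highest and its lowest library were both saline. Trpc2 (chromosome 7, 102083116 to 102096396, plus strand) had 0.28 FPKM, a listed 0 and 0.21 FPKM in morphine, against 0.40, 0.41 and 0.13 FPKM in saline.

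**Figure D1:**
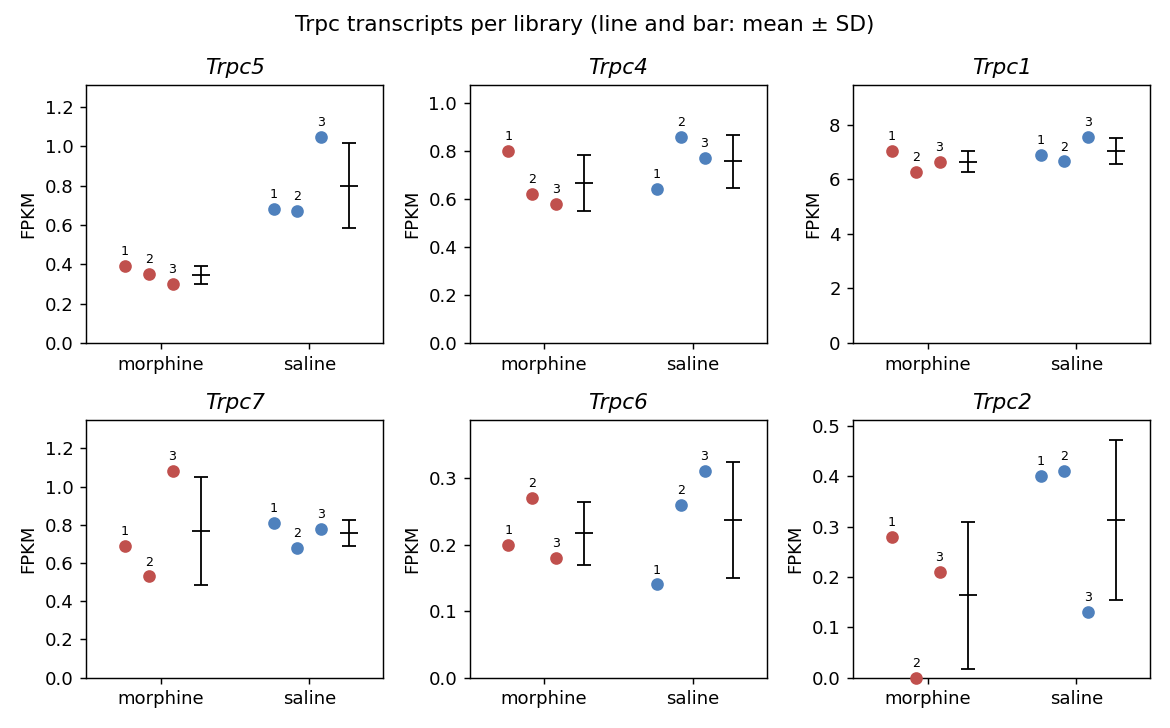
FPKM of the 6 Trpc transcripts (vertical axes, linear and from 0, a different scale in each panel) in morphine and saline libraries. Each numbered point is a library, and the line and bar beside the points are the mean ± SD of 3 libraries. Trpc5 is the panel in which the groups do not overlap, with 0.30 to 0.39 FPKM in morphine and 0.67 to 1.05 FPKM in saline.

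The order of the levels over all 6 libraries was Trpc1 (6.84 ± 0.445 FPKM, SD, n = 6), Trpc7 (0.762 ± 0.184), Trpc4 (0.712 ± 0.113), Trpc5 (0.573 ± 0.285), Trpc2 (0.238 ± 0.159) and Trpc6 (0.227 ± 0.0638). Neighbours in this order were compared within libraries by an exact two-sided sign-flip permutation test of FPKM. Its smallest p with 6 libraries is 0.031, and adjustment was over the 5 pairs. Trpc1 was above Trpc7 in 6 of 6 libraries (exact permutation p = 0.031, adjusted p = 0.0781). Trpc5 was above Trpc2 in 6 of 6 libraries, with the same p values. This depends on how fragments were split between Trpc2 and the overlapping gene Xntrpc, described below. Their summed FPKM was 0.69, 0.59 and 0.71 in morphine 1, 2 and 3, above Trpc5 in each. In saline 1, 2 and 3 the sum was 0.50, 0.64 and 0.53 FPKM, below Trpc5 in each. Trpc7 and Trpc4 (higher in 3 of 6 libraries, exact permutation p = 0.781), Trpc4 and Trpc5 (4 of 6, exact permutation p = 0.313) and Trpc2 and Trpc6 (4 of 6, exact permutation p = 0.938) did not differ beyond their spread. None of the 5 comparisons passed after adjustment, and the order was read from the same values.

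The place of Trpc5 in the order of the group means differed between morphine and saline, through saline 3. After morphine Trpc5 ranked behind Trpc7 and Trpc4, and its highest value (0.39 FPKM) lay under the lowest value of Trpc4 (0.58 FPKM) and of Trpc7 (0.53 FPKM). In saline Trpc5 ranked second with a mean of 0.80 FPKM, beside 0.757 FPKM each for Trpc4 and Trpc7, and the 3 genes overlapped. Without saline 3, a check chosen after seeing the data, Trpc5 averaged 0.675 FPKM in saline, below Trpc4 (0.75 FPKM) and Trpc7 (0.745 FPKM), the same place as in morphine. Trpc2 and Trpc6 also stood in opposite orders, at 0.163 and 0.217 FPKM in morphine and at 0.313 and 0.237 FPKM in saline, within their spread.

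The abundance sets how well each level is known. Taking the longest annotated transcript of each gene, Trpc1 rested on about 484 to 753 fragments per library and Trpc5 on 21.9 to 30.6 in morphine and 57.5 to 88.1 in saline. Trpc4 rested on 35.0 to 73.0 and Trpc7 on 31.2 to 66.2. Trpc6 rested on 9.13 to 20.6, and its lowest value, in saline 1, has a 95% Poisson interval of 4.2 to 17.3 fragments. These intervals cover counting error only, and the fragments are estimates from the FPKM steps, not counts.

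Of the 6 genes 0 passed the test of morphine against saline (limma on log2(FPKM + 1), threshold of adjusted p under 0.05), and Trpc5 was the 1 with an unadjusted p under 0.05. The background was small: 8 of 28021 genes (0.0286%) passed in this fit, and 14.1% had an unadjusted p under 0.05. Leaving out 1 library gave 2 to 20 genes, the most without morphine 2. With the table limited to 14614 genes of at least 1 FPKM in at least 3 libraries, 220 (1.51%) passed, and of the Trpc genes Trpc1 was the 1 that met this limit (adjusted p = 0.642). Trpc5 averaged 0.347 ± 0.0451 FPKM in morphine and 0.80 ± 0.217 FPKM in saline (SD, n = 3 each), a log2 fold change of -0.41 (SE 0.10, limma adjusted p = 0.151). This scale understates the change of genes near or below 1 FPKM, and with a pseudocount of 0.1 the value was -0.99 (limma adjusted p = 0.176). A two-sided exact permutation test on FPKM gave p = 0.1, which is the lowest value possible with 3 libraries in each group.

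For the others the differences and their 95% intervals are on the log2(FPKM + 1) scale. For genes below 1 FPKM these intervals do not bound the fold change of FPKM itself, and with a pseudocount of 0.1 the estimate was -0.77 for Trpc2, -0.16 for Trpc4, -0.063 for Trpc6 and -0.030 for Trpc7. Trpc1 averaged 6.64 ± 0.395 FPKM in morphine and 7.03 ± 0.472 FPKM in saline (SD, n = 3 each), with a log2 fold change of -0.07 and a 95% interval of -0.27 to 0.12. Trpc4 averaged 0.667 ± 0.117 and 0.757 ± 0.111 FPKM in morphine and saline, with a log2 fold change of -0.08 (95% interval -0.30 to 0.15). The intervals of Trpc7 (-0.32 to 0.31), Trpc6 (-0.18 to 0.14) and Trpc2 (-0.48 to 0.13) also held 0. Point estimates were below 0 for all 6 genes, beside 50.3% of all genes, and those of Trpc6 and Trpc7 turned positive once a trend with transcript length was removed. The mean FPKM of Trpc7 was 0.767 in morphine and 0.757 in saline, above and not below. The Trpc2 estimate depends on the split with Xntrpc, described below, and that of their sum was 0.10. In bulk tissue, fewer cells of a type and less RNA per cell cannot be told apart.

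**Figure D2:**
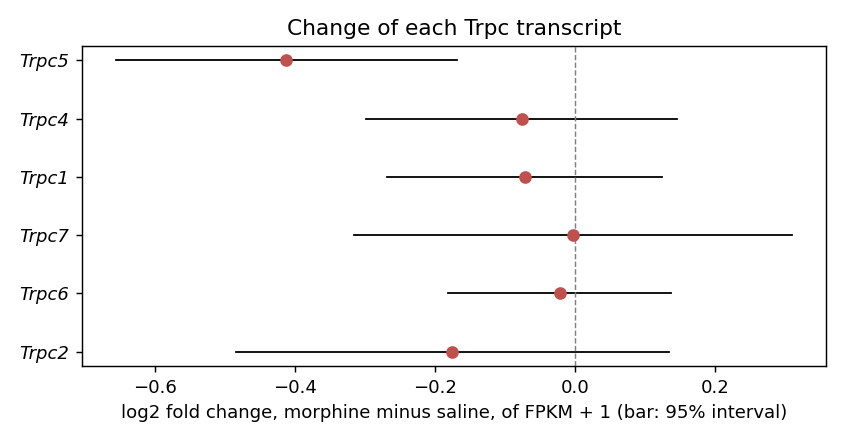
Log2 fold change of FPKM + 1, morphine minus saline (horizontal axis), for the 6 Trpc genes, with points for the limma estimates and bars for their 95% intervals. The interval of Trpc5 runs from -0.66 to -0.17, and those of the other 5 genes include 0.

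Relative to Trpc4 and to Trpc1, its possible partners, the level of Trpc5 was lower in every morphine library than in any saline library. There were 2.05, 1.77 and 1.93 Trpc4 FPKM per Trpc5 FPKM in morphine 1, 2 and 3, against 0.941, 1.28 and 0.733 in saline 1, 2 and 3. The morphine values all lay above the saline values, so Trpc4 exceeded Trpc5 in all 3 morphine libraries and in 1 of 3 saline libraries (saline 2). The log2 ratio of Trpc5 to Trpc4, each with 1 added, was -0.31 ± 0.06 in morphine and 0.03 ± 0.18 in saline (SD, n = 3 each), a difference of -0.34 with an exact permutation p of 0.1, the smallest possible.

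The ratio of Trpc1 FPKM to Trpc5 FPKM was 18.1, 17.9 and 22.1 in morphine 1, 2 and 3, against 10.1, 9.93 and 7.2 in saline 1, 2 and 3. The groups did not overlap. The log2 ratio of Trpc5 to Trpc1 was -2.50 ± 0.07 in morphine and -2.16 ± 0.09 in saline, a difference of -0.34 (exact permutation p = 0.1). Both differences grow with a smaller pseudocount: with 0.1 added they were -0.83 (to Trpc4) and -0.91 (to Trpc1), and with 0.5 added -0.50 and -0.53. Both ratios share the Trpc5 values, so they are not independent of each other or of the Trpc5 comparison, and 3 libraries a group cannot bring this test under 0.1. A ratio of transcripts does not measure which subunits are joined in channels.

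**Figure D3:**
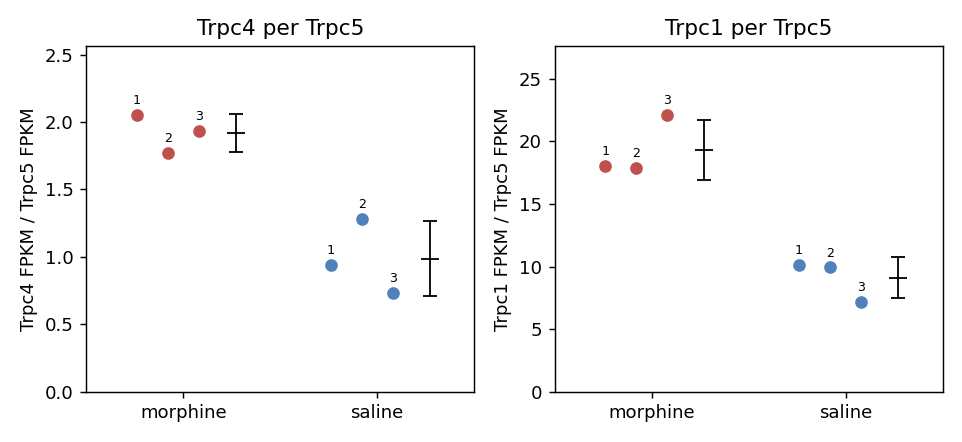
FPKM of Trpc4 (left) and Trpc1 (right) per FPKM of Trpc5 in each library, on linear axes from 0. Numbered points are libraries, and the line and bar are the mean ± SD of 3 libraries. In both panels the morphine points, 1.77 to 2.05 and 17.9 to 22.1, lie above the saline points, 0.733 to 1.28 and 7.2 to 10.1.

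The value of Trpc2 cannot be read apart from that of Xntrpc, a longer gene on the same strand. Of the 2874 exonic bases of Trpc2, 2803 (97.5%) also belong to Xntrpc and the other 71 to Xndc1, so 0 bases are its own. Xntrpc had 0.41, 0.59 and 0.50 FPKM in morphine 1, 2 and 3, against 0.10, 0.23 and 0.40 FPKM in saline 1, 2 and 3. Where Trpc2 was high Xntrpc was low: Trpc2 took 40.6%, 0% and 29.6% of their summed FPKM in morphine 1, 2 and 3, against 80%, 64.1% and 24.5% in saline 1, 2 and 3. The sum varied less, at 0.663 ± 0.0643 FPKM in morphine and 0.557 ± 0.0737 FPKM in saline (SD, n = 3 each; exact permutation p = 0.2). The mean of Trpc2 alone was lower in morphine than in saline, and the mean of the sum was higher. For morphine 2, where Trpc2 is listed at 0, 3 fragments would have given 0.0633 FPKM.

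**Figure D4:**
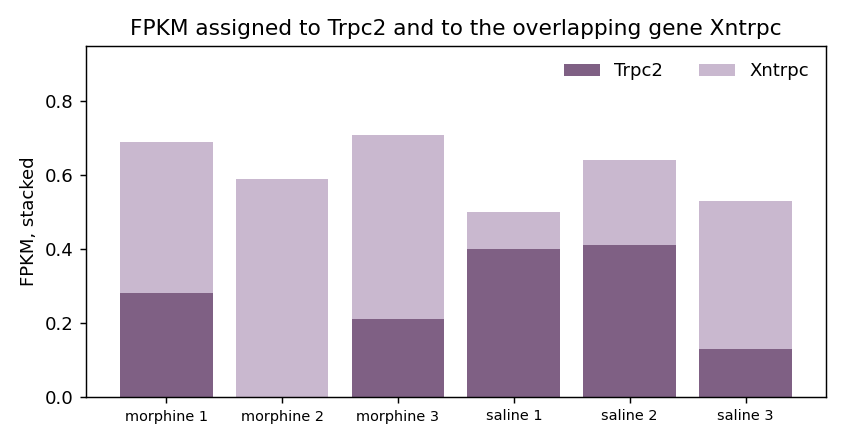
FPKM assigned to Trpc2 (dark) and to Xntrpc (light), stacked, in each morphine and saline library. The share of Trpc2 runs from 0% to 40.6% in morphine and from 24.5% to 80% in saline, while the sums stay between 0.50 and 0.71 FPKM.

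The other 5 genes share no exonic base with an annotated gene. Trpc5 holds Trpc5os on the opposite strand in its introns, at 0, 0 and 0.02 FPKM in morphine and 0, 0 and 0.01 FPKM in saline. The annotation gives 10 protein-coding genes within 1 Mb of Trpc5, and 0 passed limma's test, with 0 at an unadjusted p under 0.05, beside 14.1% of all genes. Of the nearest, Rtl4, a gene derived from a retrotransposon, lies 727 bases from Trpc5 and had 1.15, 1.17 and 0.97 FPKM in morphine, against 0.91, 1.05 and 1.58 FPKM in saline. Alg13, an enzyme subunit of protein glycosylation, lies 7221 bases away and had 3.67, 6.13 and 5.58 FPKM in morphine, against 4.26, 4.27 and 3.77 FPKM in saline. Saline 3 was thus the highest library for Rtl4 as it was for Trpc5, and the lowest saline library for Alg13, and the groups of both genes overlapped.

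Cell type markers give the setting of these levels. Motor neuron markers split the libraries across the groups: the 7 listed genes summed to 44.8, 134 and 15.9 FPKM in morphine 1, 2 and 3 and to 148, 134 and 24.8 FPKM in saline 1, 2 and 3. Trpc5 was highest in saline 3, at 1.05 FPKM, and had 0.35 and 0.30 FPKM in morphine 2 and morphine 3. Whether motor neuron content bears on the Trpc values was not tested. The 6 pan-neuronal markers, led by Snap25 and Nefl, summed to 2592 to 2845 FPKM in morphine and 2730 to 2944 FPKM in saline. The 5 markers of inhibitory interneurons summed to 212 to 272 FPKM in morphine and 255 to 321 FPKM in saline, with overlap. Of these, Slc6a5 separated the groups (33.6 to 41.3 FPKM in morphine, 47.8 to 62.1 FPKM in saline), while Slc32a1, Gad1, Gad2 and Pax2 overlapped. The 6 markers of pericytes and smooth muscle summed to 33.8 to 45.3 FPKM in morphine and 48.2 to 57.4 FPKM in saline, without overlap. Rgs5 made up most of this sum, at 26.7 to 31.4 FPKM in morphine and 33.6 to 35.3 FPKM in saline. Rgs5 and Kcnj8 separated the groups, while Pdgfrb, Acta2, Myh11 and Tagln overlapped. The 4 globin genes summed to 420 to 592 FPKM in morphine and 756 to 1074 FPKM in saline, without overlap. Separation in either direction held for 19.1% of single genes above 0 in at least 1 library. That share was not computed for sums or for genes of like level, so it is a loose guide here. The 5 markers of endothelium summed to 42.4 to 55.9 FPKM in morphine and 51.6 to 53.2 FPKM in saline, with overlap. Cldn5 had the largest part of this sum, at 21.58 to 27.45 FPKM in morphine and 20.57 to 25.06 FPKM in saline. Pecam1 (2.69 to 3.85 FPKM in morphine, 5.09 to 5.29 FPKM in saline) and Flt1 (6.5 to 8.85 and 8.94 to 10.83 FPKM) separated the groups, lower after morphine. Cldn5, Slco1a4 and Cdh5 overlapped. The part of these cell types in the Trpc values was not tested. Markers of root ganglion neurons summed to 0.32 to 0.53 FPKM in morphine and 0.30 to 0.51 FPKM in saline, with 0 of 5 listed at 0 throughout. Vomeronasal and olfactory markers summed to 0.54 to 0.64 and 0.41 to 0.51 FPKM in morphine and saline, and Gnat3 was at 0 in all 6 libraries.

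The 96 genes of 9 pathway lists cover the route from receptor to channel. In the fit over all genes above 0, limma called 0 of them, with 19 at an unadjusted p under 0.05, beside 14.1% of all genes. Of the 89 with at least 1 FPKM in at least 3 libraries, the filtered fit called 0 higher and 1 lower, beside 0.944% and 0.561% of the genes it tested. At an unadjusted p under 0.05 it had 5 higher and 14 lower, beside 22.3% of genes in either direction. That share was not split by direction, so the balance of higher and lower has no background here. The median log2 fold change of the 89 genes was -0.064, beside -0.015 for all genes in the filtered fit.

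Receptors and G proteins come first in this route. Htr2a, a serotonin receptor coupled to Gq, had 0.27, 0.73 and 0.27 FPKM in morphine, against 1.68, 1.50 and 1.42 FPKM in saline (log2 fold change -0.85, limma adjusted p = 0.0998). Its groups did not overlap, as in 19.1% of all genes, and it was named for its small p. S1pr1, a sphingosine 1-phosphate receptor, had 35.4 to 38.8 FPKM in morphine and 42.3 to 46.4 FPKM in saline (limma adjusted p = 0.124). Of the 15 receptors 0 passed limma's test, with 2 at an unadjusted p under 0.05, beside 14.1% of all genes. Among 9 genes of Gq and phospholipase C, 0 passed and 0 had an unadjusted p under 0.05 in limma, beside 0.0286% and 14.1% of all genes. Gnaq, the alpha subunit of Gq, had 30.4 to 36.8 FPKM in morphine and 29.0 to 31.7 FPKM in saline, and Plcb1, a phospholipase C, had 9.37 to 10.0 and 10.3 to 10.9 FPKM. Of 4 subunits of Gi and Go, known to act on Trpc4 and Trpc5 channels, 0 passed and 0 had an unadjusted p under 0.05 in limma, beside the same shares. Counts of 0 in lists this small do not show that these genes were unchanged. Gnai3 had 14.3 to 16.3 FPKM in morphine and 15.4 to 16.9 FPKM in saline, and Gnai1 66.0 to 75.1 and 71.8 to 76.5 FPKM.

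Diacylglycerol handling held the 1 pathway gene that passed in the filtered fit. Dgkq, a kinase that removes diacylglycerol, had 7.79, 7.43 and 7.59 FPKM in morphine, against 10.5, 10.3 and 11.4 FPKM in saline (log2 fold change -0.44; limma adjusted p = 0.0462 filtered and 0.0992 unfiltered). In a check chosen after seeing the data, the filtered fit called it without morphine 2 (limma adjusted p = 0.0408) and did not call it without any 1 of the other 5 libraries (limma adjusted p = 0.107 to 0.152), with log2 fold changes of -0.47 to -0.40. Dgkz, another diacylglycerol kinase, had 49.1, 46.7 and 48.9 FPKM in morphine, against 38.3, 40.8 and 39.4 FPKM in saline (log2 fold change 0.28; limma adjusted p = 0.0557 filtered and 0.0992 unfiltered). The groups of both genes did not overlap, in opposite directions, and such separation held for 19.1% of all genes. Both were named for their small p, so this adds no support. Of the 11 genes in the list 0 passed in the unfiltered fit, with 4 at an unadjusted p under 0.05 in limma, beside 14.1% of all genes.

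Store-operated entry refills calcium stores, and Trpc1 has been linked to it. Stim1, the calcium sensor of the store, had 13.9 to 14.04 FPKM in morphine and 16.1 to 16.7 FPKM in saline (log2 fold change -0.22, limma adjusted p = 0.126). Itpr1, the inositol trisphosphate receptor that empties the store, had 4.99 to 5.37 FPKM in morphine and 5.96 to 8.09 FPKM in saline (log2 fold change -0.41, limma adjusted p = 0.193). Of 9 genes 0 passed limma's test, with 2 at an unadjusted p under 0.05, beside 14.1% of all genes. The filtered fit held all 9, with 0 higher and 3 lower at an unadjusted p under 0.05, beside 22.3% of genes in either direction. The list's median was -0.21, beside -0.015 for all genes in the filtered fit.

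Scaffolds, sensors and kinases bind or modify the channels. Of 24 scaffold and trafficking genes 0 passed limma's test, with 7 at an unadjusted p under 0.05, beside 14.1% of all genes. All 24 met the limit of the filtered fit, where 7 again had an unadjusted p under 0.05, beside 22.3% of genes. Fkbp4, a prolyl isomerase that binds Trpc proteins, had 61.1 to 66.4 FPKM in morphine and 74.9 to 79.95 FPKM in saline, and Cav1, the caveolin that binds Trpc1, had 8.54 to 12.6 and 13.6 to 15.7 FPKM (limma adjusted p = 0.128 and 0.193). Of 12 calcium sensors 0 passed, with 1 at an unadjusted p under 0.05 in limma, beside 14.1% of all genes. The 1 sensor was Cabp1, a neuronal calcium-binding protein that can bind Trpc5. It had 138, 124 and 144 FPKM in morphine, against 113, 111 and 115 FPKM in saline (log2 fold change 0.25, limma adjusted p = 0.153).

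Of 8 kinases 0 passed limma's test, with 2 at an unadjusted p under 0.05, beside 14.1% of all genes. Prkg1, the cyclic GMP-dependent kinase, had 0.54, 0.47 and 0.68 FPKM in morphine, against 0.94, 1.24 and 1.42 FPKM in saline (log2 fold change -0.49, limma adjusted p = 0.145). Its groups did not overlap, as in 19.1% of all genes, and it too was named for its small p. Prkacb, a catalytic subunit of protein kinase A, had 99.7 to 114 FPKM in morphine and 116 to 130 FPKM in saline (limma adjusted p = 0.287). Of 4 redox and protease genes 0 passed, with 1 at an unadjusted p under 0.05 in limma, beside 14.1% of all genes. Txn1, a thioredoxin, had 48.4 to 55.3 FPKM in morphine and 45.4 to 47.3 FPKM in saline, and Capn1, a calpain, had 8.03 to 12.7 and 8.93 to 15.0 FPKM (limma adjusted p = 0.282 and 0.635).

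**Figure D5:**
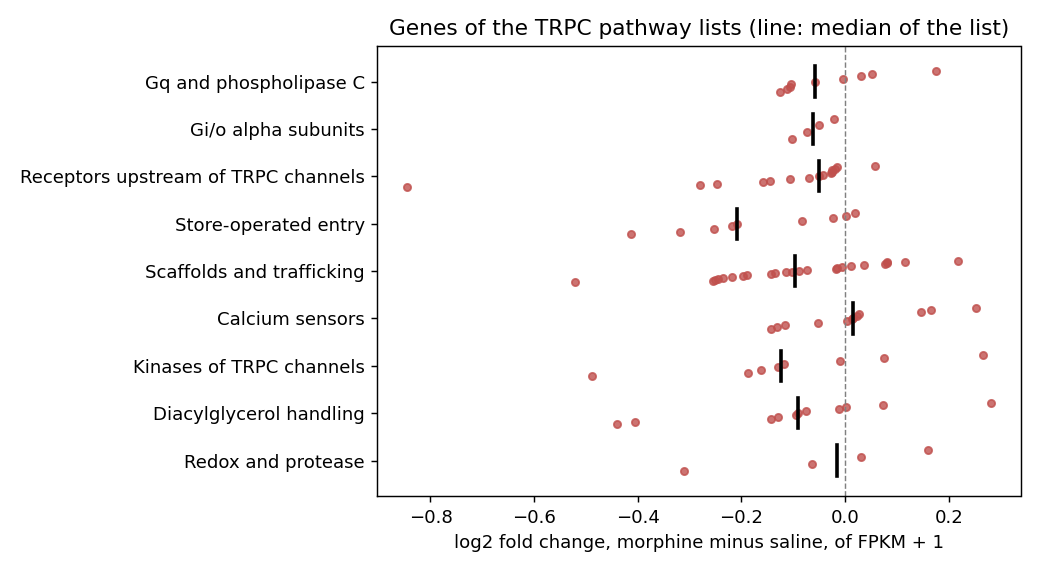
Log2 fold change of FPKM + 1, morphine minus saline, for the 96 genes of the pathway lists (1 point a gene, vertical offset for display) with a line at each list's median. Most medians lie a little below 0, the lowest at -0.21 for store-operated entry, and Htr2a is the point at -0.85.

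Many transcripts shared the pattern of Trpc5 over the 6 libraries. Pearson's r of log2(FPKM + 1) was above 0.9 for 459 of the 12603 named genes ranked, and this likeness takes in the difference between the groups and the high value in saline 3. The 5 most alike were Edem3, Brd8, Usp34, Anks6 and Ctcf (r = 0.992 to 0.994). Usp34, a deubiquitinating enzyme, had 21.4, 21.2 and 20.5 FPKM in morphine, against 25.01, 25.4 and 28.3 FPKM in saline, and Ctcf, an insulator protein of chromatin, had 20.5, 20.4 and 19.9 FPKM in morphine, against 21.8, 22.2 and 23.7 FPKM in saline. Fewer genes reached that r with Trpc1 (192), Trpc7 (48), Trpc4 (39), Trpc6 (33) and Trpc2 (30). The most alike was Zfp108 for Trpc1, Npr1 for Trpc4, Ifit1bl1 for Trpc6, Hoxb5os for Trpc7 and Zfp948 for Trpc2. Npr1, the receptor of atrial natriuretic peptide, had 1.99, 1.30 and 1.03 FPKM in morphine, against 1.43, 2.28 and 2.00 FPKM in saline. With 6 libraries such values describe the ranking and carry no test.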

How the data were processed

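RNA was measured in 6 libraries, 3 from morphine-treated and 3 from saline-treated mice, made from total RNA with a stranded kit, per the labels. The deposited table holds FPKM values that the authors made, with 2 decimals, for 52513 genes. The tools named, per the submitters' processing notes, are RSEM, STAR, Trimmomatic and bcl2fastq 2.19.0, with mm10 as the build. The sources used here do not give the other versions, the annotation or whether counting used strand. Columns were matched to samples by the sample descriptions.

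Genes above 0 FPKM in at least 1 library (28021) were fitted as log2(FPKM + 1) with limma 3.58.1 in R 4.3.3, using an intensity trend and two-sided tests, with Benjamini-Hochberg adjustment over all of them. A fit limited to at least 1 FPKM in at least 3 libraries was the alternative. The first fit was also run on simulated data, in which the changed genes had a mean log2(FPKM + 1) above 1. Of the Trpc genes only Trpc1 lies above that level, so the run does not bear on the others. Its outcome is not given here. Exact permutation tests enumerated all arrangements in Python 3.11.15 with NumPy 2.4.6 and pandas 2.3.3. SciPy 1.17.1 gave intervals and matplotlib 3.10.9 the plots.

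Depth was inferred from genes of 1 transcript of 300 to 1500 nt, whose low FPKM values are multiples of 1 fragment. At the estimates 77.2% to 79.9% of values lay within 0.05 of a whole fragment (or within the rounding of the table), against 12.7% to 16.9% for evenly spread values. Coordinates and exons are from GENCODE M21, also on mm10, and upstream sequences from RefSeq.

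The members and lists were chosen with earlier results of these data known. Named genes are the members, up to 4 passing genes of each list or else the 2 with the smallest p, the 5 genes most like Trpc5 and 3 (of which the first is printed) for each other member, overlapping genes and near neighbours of Trpc5. A gene that this rule names is not reported here. Markers are given as sums, for some of the lists only and with single genes for part of these, and no test set which lists or genes are printed.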

Additional observations from a re-analysis of the deposited data

How the results depend on the processing

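Trpc5 kept its negative direction and did not pass under any of 13 alternatives, with log2 fold changes of -0.99 to -0.32 and limma adjusted p of 0.0974 (TPM scaling) to 0.326. Trpc1 and Trpc4 stayed below 0 and did not pass under 14 and 13 alternatives, and TPM scaling gave Trpc1 -0.19 (limma adjusted p = 0.285). With the length trend removed, Trpc6 came to 0.012 and Trpc7 to 0.0080, and leaving out 1 library gave -0.079 to 0.021 for Trpc6 and -0.127 to 0.095 for Trpc7. Summed with Xntrpc, an alternative chosen after seeing the data, Trpc2 came to 0.10. The differences of the Trpc5 to Trpc4 and Trpc5 to Trpc1 log2 ratios stayed negative under 9 alternatives each, at -0.83 and -0.91 with a pseudocount of 0.1. The number of genes called over the table moved from 8 to 220 with the filter, to 15 with a pseudocount of 0.1, to 29 with TPM scaling and to 0 with the replicate number as a block (4078 at an unadjusted p under 0.05 in limma). It was 2 without morphine 1, 20 without morphine 2, 2 without morphine 3, 3 without saline 1, 7 without saline 2 and 2 without saline 3. The cause of these moves was not tested. Pathway genes called went from 0 to 1 with the filter and stayed at 0 under the other 8 alternatives. Leaving out 1 library gave mean differences of -0.04 to 0.096 FPKM for Trpc7 minus Trpc4 and -0.038 to 0.068 FPKM for Trpc2 minus Trpc6. The main fit did not take the library numbers as pairs. Deviations of same-numbered libraries from their group means had r = -0.129, 0.161 and 0.295 across 14614 genes. With 3 libraries a group such r values depend on each other, so they cannot show whether the numbers mark pairs or batches. With the replicate block the Trpc5 value was -0.41 (limma adjusted p = 0.251), and not every library correlated best with its own number. At the depth of these libraries, Trpc2 and Trpc6 rest on at most 28.4 and 20.6 fragments in any library, which limits what can be told of them.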
